A study of Mus musculus with 4 samples.

Results

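A set of 10 genes whose transcripts took different shares in control and irradiated mouse oocytes is described here, out of 17374 genes in the deposited table. The set covers 59 of the 45505 RefSeq transcripts listed. Its members are Gpbp1, Gps1, Rif1, Ankrd27, Cep192, Tom1l2, Dhx32, Bptf, Sestd1 and Rab3gap1. They were chosen because the split of their counts among transcripts differed between control and irradiated oocytes in these same 4 libraries while their gene totals passed no test. Every value that sets control against irradiated libraries for a member is therefore a description, with no test, and supports nothing by itself. Each transcript is given by its estimated read count and by its share, which is that count as a percentage of the sum over all listed transcripts of the gene in the same library. Shares of counts are not corrected for transcript length, so they are not shares of molecules. Of the 59 member transcripts, 26 carry RefSeq's NM_ prefix for curated transcripts and 33 are XM_ records, which RefSeq predicts by computation.

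Most mammalian genes make several mature RNAs by choosing among start sites, exons, splice sites and polyadenylation sites, and these RNAs can encode proteins with different ends or inserts. The growing oocyte makes and stores much of the RNA that the egg and early embryo later use. A short read that falls in a stretch shared by several transcripts does not name its source, so programs such as RSEM divide these reads by a statistical estimate. A gene's total does not depend on how reads are divided among its own transcripts, but the count of each transcript does, and reads that match several genes are divided between those genes as well.

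All 4 libraries came from germinal vesicle stage oocytes, arrested in prophase of meiosis, that were taken on postnatal day 16 from non-primed female mice of a C57/Bl6/DBA2J F1 hybrid background. The 2 control libraries were not irradiated. The 2 irradiated libraries came from oocytes that received 5 Gy of γ-irradiation in culture and were collected the next day. Oocytes of both conditions were freed of cumulus cells, held in medium with milrinone to keep meiosis arrested, and pooled for each library, so that a library averages over many oocytes. The study describes 2 independent experiments, and the spread between the 2 libraries of a condition is the only error available.

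The estimated counts summed to between 33349466 and 37232818 per library. Irradiated library 2 stood apart, with a TMM scaling factor of 1.19 against 0.923 to 0.975 in the other 3. All 10 oocyte markers were listed, at a summed level of 27785 to 29705 TPM (a level per length that is put on a common total for all libraries), which fits the label of oocytes. Single markers were less even. In irradiated library 2, Zp2 and Oosp1 were at 1937 and 1038 TPM, against at least 4115 and 2200 elsewhere. Zp1 went the other way, at 2579 against at most 1294. Of 10 markers of granulosa and cumulus cells, 8 had values and summed to 16.9 to 22.6 TPM. Of 3 leukocyte markers 1 had values, Cd68, at 1.58 to 3.50 TPM, and 2 of 4 stroma and theca markers summed to 0.01 to 0.16 TPM, among them Cyp17a1 at 0 or 1 counts. In bulk libraries fewer cells of a type and less RNA per cell cannot be told apart. The highest granulosa, leukocyte and stroma sums were all in irradiated library 2, and their part in the values below was not tested.

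Most of the transcripts that carry these differences are close in length to the main transcript of their gene, judged by the ratio of counts to TPM. RefSeq accessions matched a transcript in the GENCODE annotation of GRCm38 for 18 of the 59, and for 6 of the 10 transcripts with the largest separation. Only part of the set can thus be shown at the level of exons. In Tom1l2, which encodes an endosomal adaptor of the TOM1 family, NM_001039092.4 had the most control counts. NM_153080.3 differs from it by a cassette exon of 60 bases, all coding, at chr11:60232898-60232957 (GRCm38, minus strand). It lengthens the coding sequence, counted without the stop codon, from 1461 to 1521 bases. In Gps1, which encodes subunit CSN1 of the COP9 signalosome, NM_001346709.2 keeps as coding sequence a stretch of 73 bases at chr11:120788597-120788669 (plus strand) that NM_001177874.2 removes as an intron. As 73 is not a multiple of 3, the stretch shifts the reading frame. The annotated coding sequence is 1470 bases with it and 1461 without it. Another difference is 3 bases at chr11:120787009-120787011 that NM_001177874.2 holds and NM_001363440.1 lacks. The sequences are printed 5′ to 3′ on the strand of the gene with 15 shared bases on each side in lower case, and capitals mark the bases that only one transcript of a pair has.
Tom1l2 NM_153080.3, with the cassette exon: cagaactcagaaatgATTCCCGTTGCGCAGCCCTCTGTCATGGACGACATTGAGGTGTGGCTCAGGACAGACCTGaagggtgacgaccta
Tom1l2 NM_001039092.4, without it: cagaactcagaaatgaagggtgacgaccta
Gps1 NM_001346709.2, with the kept intron: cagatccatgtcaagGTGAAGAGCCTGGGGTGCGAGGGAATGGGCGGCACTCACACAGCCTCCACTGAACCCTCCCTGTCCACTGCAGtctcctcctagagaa
Gps1 NM_001177874.2, without it: cagatccatgtcaagtctcctcctagagaa
Gps1 NM_001177874.2, at the short difference: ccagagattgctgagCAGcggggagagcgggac
Gps1 NM_001363440.1, at the same place: ccagagattgctgagcggggagagcgggac
Reads over these junctions and exons can tell the transcripts of a pair apart. The pairs also differ by short stretches of untranslated sequence at their ends, which are not printed. GENCODE holds the earlier RefSeq versions NM_153080.2, NM_001039092.3 and NM_001177874.1 of 3 of these transcripts.

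For each gene the gap is the lower share of one condition minus the higher share of the other, in percentage points, for the transcript in which it is largest. It was above 10 points in 6 of the 10 genes, against 349 of 5865 genes (5.95%) with 2 or more transcripts and at least 100 counts in every library. The members were chosen on this contrast, so nothing is read from that count. Largest was the gap of Tom1l2, 21.8 points, which ranked at 73 of 5865, and smallest that of Gps1, 4.85 points, at rank 879. The set is thus not a list of the most separated genes. Among the member transcripts 34 had more than 3 counts, the floor used here, in all 4 libraries, 2 in 3, 14 in 2, 8 in 1 and 1 in none, and 49 passed the filter on low counts.

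**Figure D1:**
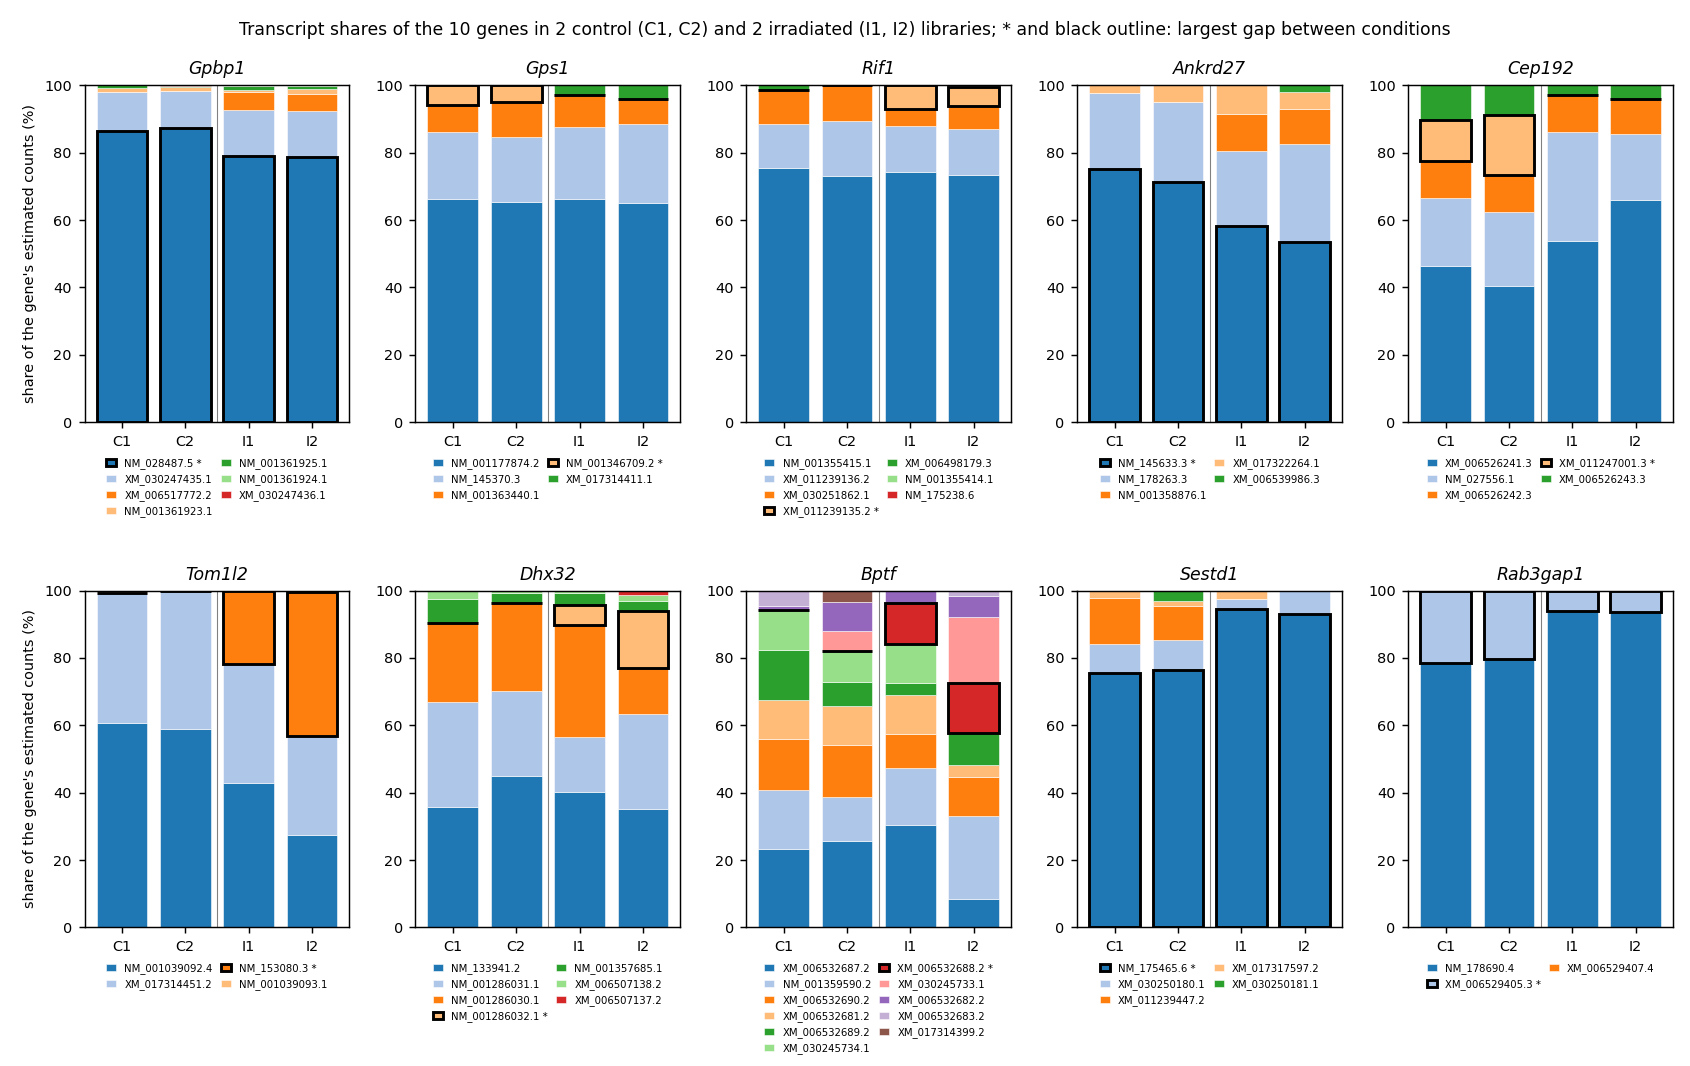
Stacked bars give the share of each listed transcript in the gene's estimated counts (percent) in control libraries C1 and C2 and irradiated libraries I1 and I2, 1 panel per gene. The transcript with the largest gap is outlined in black and starred; Rab3gap1 and Gpbp1 divide alike in the 2 libraries of a condition, whereas the Bptf bars differ between all 4 libraries.

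Rif1 (chr2:52072815-52126769, GRCm38) encodes a factor that acts with 53BP1 in the choice of double-strand break repair and in replication timing. Its main transcript, NM_001355415.1, counted 2653 and 2456 in the controls against 2267 and 2367 after irradiation, a share of 75.3% and 73.1% against 74.2% and 73.4%. The dominant form thus held nearly the same part of the gene in all 4 libraries, and the conditions overlapped. The difference lay in a pair of predicted transcripts. XM_011239135.2 counted 0.05 and 0.86 in the controls against 214.80 and 177.17 after irradiation, at least 60.2-fold more against the floor of 3 counts per library. Here and below, "at least" means only that the low condition was set to the floor. The other condition enters as the mean of its 2 libraries. Its spread, its counting error and the error of dividing reads among transcripts are not covered. XM_030251862.1 counted 353.32 and 356.23 in the controls against 151.60 and 218.98 after irradiation, a share of 10.3% ± 0.41 against 5.87% ± 1.29 (SD, n = 2 each). Together these 2 transcripts took 10.03% and 10.63% of the control counts and 11.99% and 12.28% of the irradiated counts. The 2 transcripts were picked because they differed in opposite directions, and their joint share was higher in both irradiated libraries. By counts per TPM their lengths were 102.3% and 99.2% of that of the main transcript.

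Bptf (chr11:107033081-107132147) encodes the largest subunit of the nucleosome remodelling factor NURF, which reads methylated histone H3. With 11 listed transcripts, 10 of them predicted, it was the most divided member. XM_006532688.2 counted 0 and 0 in the controls against 152.19 and 176.22 after irradiation, at least 49.6-fold more against the floor, and a share of 12.3% and 14.7%. A count of 0 here allows a share of up to 0.229% and 0.253% in the 2 control libraries. Several other Bptf transcripts differed between libraries of the same condition. XM_030245733.1 had 0, 72.10, 0 and 237.97 counts in control 1, control 2, irradiated 1 and irradiated 2. XM_006532687.2 had 305.73, 304.45, 375.68 and 99.44 counts in the same order, so that irradiated library 2 was the one apart. XM_006532690.2 separated the conditions by a smaller step, at 15.4% and 15.3% in the control and 10.1% and 11.6% in the irradiated libraries.

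Gpbp1 (chr13:111425680-111490128) encodes vasculin, a protein that binds GC-rich promoters, and had the highest counts of the 10. NM_028487.5 made up 86.5% and 87.4% of the control counts and 79.0% and 78.7% of the irradiated counts. That is 86.96% ± 0.66 against 78.9% ± 0.24 (SD, n = 2 each), and the 2 libraries of each condition lay within 1 point of each other. XM_006517772.2 was at 0 in each control, which allows a share of up to 0.0348%, and counted 407.67 and 445.57 after irradiation, at least 129-fold more against the floor. The difference of means was -8.11 points for NM_028487.5 and 5.28 points for XM_006517772.2. XM_030247435.1 was at 11.48% and 10.98% in the control and 13.50% and 13.54% in the irradiated libraries. The 4 remaining transcripts stayed below 2% in every library.

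Gps1 (chr11:120784260-120789102) had its main transcript, NM_001177874.2, at 66.2%, 65.3%, 66.2% and 64.9% in control 1, control 2, irradiated 1 and irradiated 2. The main form thus overlapped between conditions, as in Rif1, and the separation lay in minor forms. NM_001346709.2, the transcript with the kept intron printed above, counted 240.48 and 184.61 in the controls and 0 in either irradiated library, at least 77.3-fold fewer against the floor. XM_017314411.1 showed the reverse, at 0 in each control and at 126.50 and 251.03 counts after irradiation, at least 55.4-fold more. By counts per TPM their lengths were 104.3% and 104.8% of that of the main transcript, which sets them close to each other. NM_001363440.1, without the 3 bases shown above, was at 8.04%, 10.4%, 9.58% and 7.49% and overlapped between conditions. NM_145370.3 was at 19.96%, 19.51%, 21.33% and 23.63%.

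Dhx32 (chr7:133720935-133782785) encodes a putative RNA helicase of the DEAH-box family. NM_001286032.1 was at 0 in each control, which allows up to 0.407% and 0.419%, and counted 46.56 and 158.63 after irradiation, at least 29.4-fold more against the floor. The 2 irradiated libraries themselves were apart, at 5.97% and 16.7%. In the annotation this transcript lacks an exon of 514 bases at chr7:133759400-133759913 (minus strand) that NM_133941.2 has, 303 of them coding, and its coding sequence is 1833 bases against 2253. NM_133941.2 itself was at 35.68% and 45.03% in the control and 40.3% and 35.0% in the irradiated libraries and overlapped between conditions. NM_001286030.1 had 174.14, 186.91, 259.20 and 131.95 counts, so that the irradiated libraries lay on either side of the control libraries.

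Cep192 encodes a scaffold of the centrosome that recruits Polo-like kinase 4 and Aurora A. XM_011247001.3 counted 94.70 and 123.08 in the controls and 0 in either irradiated library, at least 39.9-fold fewer against the floor. A count of 0 allows a share of up to 0.545% and 0.483% there, against 12.1% and 17.8% in the control libraries. Its length by counts per TPM was 73.3% of that of the main transcript. XM_006526243.3 was at 10.4% and 8.73% in the control and 2.86% and 4.21% in the irradiated libraries. The main transcript, XM_006526241.3, was at 46.3% and 40.4% against 53.9% and 65.8%. NM_027556.1 was at 20.1%, 22.0%, 32.4% and 19.6% and overlapped.

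Ankrd27 (chr7:35586226-35639237) encodes VARP, an endosomal protein that activates the small GTPase Rab21. NM_145633.3 was at 75.1% and 71.2% in the control and 58.2% and 53.5% in the irradiated libraries, or 73.1% ± 2.79 against 55.9% ± 3.37 (SD, n = 2 each). NM_001358876.1 was at 0 in each control and counted 105.55 and 116.04 after irradiation, at least 33.5-fold more, and a share of 10.97% and 10.55%. Its length by counts per TPM was 98.8% of that of NM_145633.3. NM_178263.3, a short form with 12 exons and 1131 coding bases where NM_145633.3 has 29 exons and 3144, was at 22.6%, 24.0%, 22.4% and 29.1%. The short form thus overlapped between conditions. By TPM its mean share was higher, at 41.7% in the control and 44.7% in the irradiated libraries. That of NM_145633.3 was 55.6% and 41.5%, and its difference of means was -14.1 points by TPM against -17.3 by counts.

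Tom1l2 (chr11:60226714-60352932) held the widest separation of the set. NM_153080.3, with the cassette exon, was at 0 in each control and counted 80.18 and 241.11 after irradiation, at least 46.3-fold more against the floor. Its share was 21.8% and 43.0% in the irradiated libraries, and a count of 0 allows up to 0.819% and 0.837% in the control libraries. NM_001039092.4, without the exon, counted 222.22 and 211.01 in the controls against 158.29 and 154.10 after irradiation. All control counts on this pair were thus placed on the form without the exon, while the form with it held fewer counts in irradiated library 1 and more in irradiated library 2. XM_017314451.2, at 59.6% of the length of NM_001039092.4, had 141.03, 147.30, 129.88 and 164.09 counts. Its share was 38.5% and 41.1% in the control libraries. The exons of XM_017314451.2 were not determined, so the part of all Tom1l2 counts with the cassette exon is not known. By TPM XM_017314451.2 stood above NM_001039092.4 in both control libraries, at 1.82 and 2.14 against 1.71 and 1.83. The gene has the lowest counts of the 10, with 358 to 561 in total.

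Rab3gap1 (chr1:127868755-127943876) encodes the catalytic subunit of the Rab3 GTPase-activating complex. Its counts fell almost wholly on 2 transcripts of nearly the same length. XM_006529405.3 counted 556.09 and 499.31 in the controls against 130.74 and 134.23 after irradiation, a share of 21.0% ± 0.80 against 6.19% ± 0.05 (SD, n = 2 each). NM_178690.4 counted 2019 and 1941 in the controls against 1994 and 2021 after irradiation. Counts on the main form were thus alike in the 4 libraries before scaling, and the predicted form was lower in both irradiated libraries. Unlike in most of the set, the leading transcript stayed well above the floor in every library.

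Sestd1 (chr2:77180340-77280627) encodes a protein with SEC14-like lipid-binding and spectrin domains that binds TRPC channels. NM_175465.6 was at 75.6% and 76.3% in the control and 94.6% and 93.0% in the irradiated libraries. XM_011239447.2 counted 322.18 and 221.41 in the controls and 0 in either irradiated library, at least 98.8-fold fewer against the floor, and a count of 0 allows a share of up to 0.130% and 0.154%. Its length by counts per TPM was 100.2% of that of NM_175465.6. XM_030250181.1 had 0, 68.87, 0 and 0 counts in control 1, control 2, irradiated 1 and irradiated 2, so that the 2 controls themselves were apart.

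**Figure D2:**
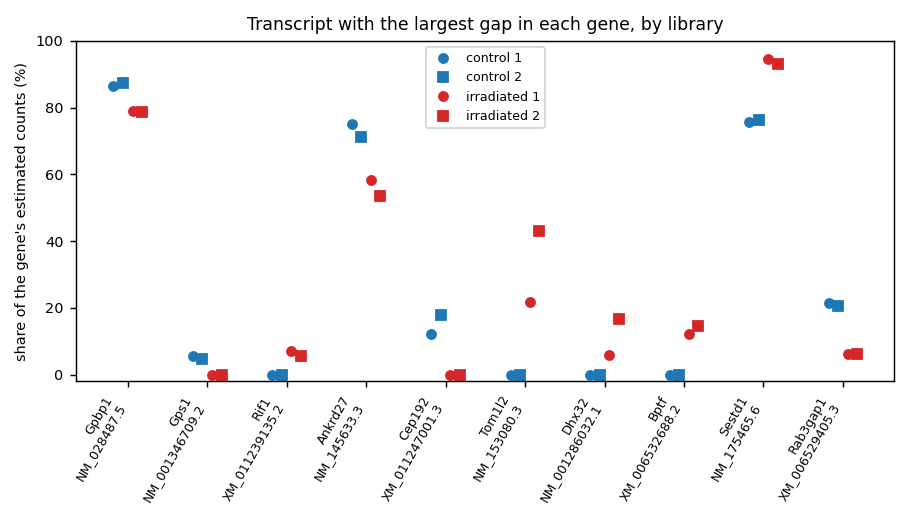
Points give the share of the gene's estimated counts (percent) held by the transcript with the largest gap, in each of the 2 control (blue) and 2 irradiated (red) libraries. In 4 genes (Rif1, Tom1l2, Dhx32, Bptf) the control points lie at or near 0, in 2 genes (Gps1, Cep192) the irradiated points do, and the 2 irradiated points of Tom1l2 are the farthest apart, at 21.8% and 43.0%.

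Appearance and loss of a transcript was also seen between libraries of the same condition. Of 37556 transcripts in genes with 2 or more, 74 had at least 50 counts in both irradiated libraries and at most 3 in both control libraries, and 48 showed the reverse. Between the 2 control libraries alone, 977 transcripts had at least 50 counts in 1 library and at most 3 in the other, and between the 2 irradiated libraries 1247 did. Among the member transcripts these counts were 6 and 3 between conditions, 4 between control libraries and 3 between irradiated libraries. A count between conditions needs both libraries of each condition to agree. A count within a condition sets single libraries against each other, so the 2 kinds are not like for like. A difference in share of more than 10 points between the 2 control libraries was present in 1794 of the 5865 genes (30.6%), and between the 2 irradiated libraries in 1970 (33.6%).

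The distance between 2 libraries, the percentage of a gene's counts that would have to be placed on other transcripts to make their shares equal, puts each gene against its own replicate spread. In 8 of the 10 genes all 4 distances between a control and an irradiated library were larger than both replicate distances, against 466 of 5865 genes (7.95%), and again the members were chosen on this contrast. Rab3gap1 was the clearest, with 1.13% between control libraries, 0.207% between irradiated libraries and 14.2% to 15.4% between conditions. For Gpbp1 these distances were 1.28%, 1.02% and 7.91% to 9.09%. Tom1l2 barely met the criterion, since its irradiated libraries were 21.5% apart and the smallest distance between conditions was 21.8%. Dhx32 and Bptf did not meet it. The irradiated libraries of Dhx32 were 25.2% apart, more than the 13.6% to 22.3% between conditions, and those of Bptf 42.0% apart, within the 22.0% to 47.1% between conditions. For these 2 genes the distances between conditions did not all exceed the spread between replicates.

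**Figure D3:**
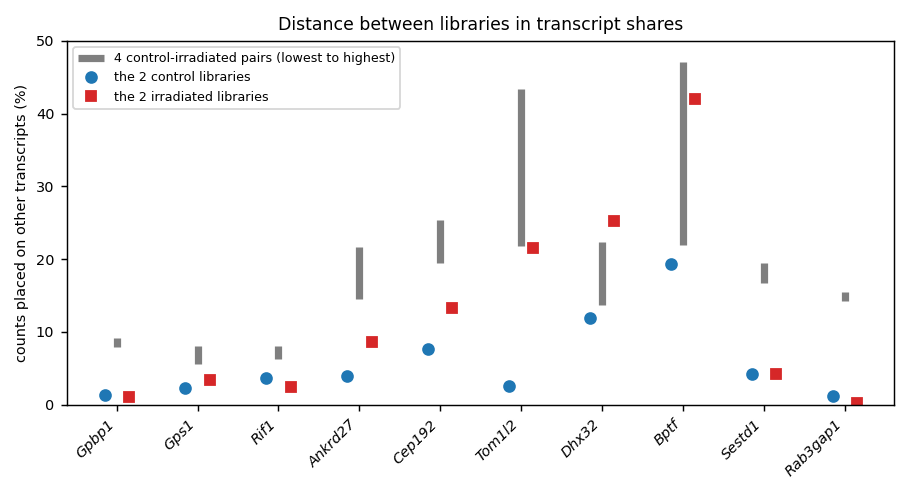
For each gene the grey bar spans the 4 distances between a control and an irradiated library, and the points give the distance between the 2 control libraries (blue circle) and between the 2 irradiated libraries (red square), in percent of counts placed on other transcripts. In 8 genes both points lie under the bar; the red square lies above it for Dhx32 at 25.2% and inside it for Bptf at 42.0%.

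In each gene the transcript with the largest gap was paired with the one with the largest gap in the opposite direction. Their shares were then added. The pairs were made after the values were seen, so their opposite directions follow from the choice. The joint share of the 2 Rab3gap1 transcripts was 100% in 3 libraries and 99.9% in irradiated library 2. This follows from the listing, since the only other transcript had 3 counts in irradiated library 2 and 0 elsewhere. For Gpbp1 the joint share of NM_028487.5 and XM_006517772.2 was 86.5% and 87.4% in the control and 84.5% and 83.8% in the irradiated libraries. For Sestd1 that of NM_175465.6 and XM_011239447.2 was 89.2% and 86.4% against 94.6% and 93.0%. In Tom1l2 the pair with and without the cassette exon held 60.6% and 58.9% in the control and 64.7% and 70.4% in the irradiated libraries. In Ankrd27 the joint share of NM_145633.3 and NM_001358876.1 was 75.1% and 71.2% against 69.2% and 64.0%. The joint shares overlapped between conditions in Cep192 and Rab3gap1. In Dhx32 the paired transcript NM_001357685.1 had a gap of -0.525 points, so it did not itself separate the conditions. Joint shares were not computed over all genes, so nothing is read from how many members overlapped.

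The totals of the 10 genes are called stable only in the sense that none passed the test. With edgeR's quasi-likelihood test, 0 of the 10 member totals and 1 of 12569 gene totals (0.00796%) passed both limits (adjusted p under 0.05, fold change over 2 log2 units), while 745 gene totals had an unadjusted p under 0.05. DESeq2 called 5 gene totals. Leaving out control 1, control 2, irradiated 1 or irradiated 2 gave 21, 20, 84 and 16 calls. At the level of transcripts 0 of 49 member transcripts and 0 of 26645 transcripts (0%) were called by edgeR, with 1306 at an unadjusted p under 0.05, while DESeq2 called 233. Normalized member totals did not overlap between conditions in 7 genes, against 41.9% of all gene totals.

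Cep192 differed most in total, with normalized counts of 802 and 748 in the control and 585 and 535 in the irradiated libraries, a log2 fold change of -0.47 (SE 0.133). Rab3gap1 had 2639 and 2645 against 2260 and 1858, a log2 fold change of -0.36 (SE 0.150). Both genes were lower in each irradiated library. Gps1, Tom1l2 and Dhx32 were higher in each irradiated library, by 0.27 (SE 0.153), 0.20 (SE 0.159) and 0.11 (SE 0.125) on the log2 scale. Rif1 and Gpbp1 were lower, at -0.27 (SE 0.147) and -0.25 (SE 0.165). These sizes depended on the scaling. By library size only Rif1 was at -0.12 and Gpbp1 at -0.10, and by summed TPM at -0.041 and -0.018. Every member total moved upward under both, and Gps1 thus grew to 0.45 and 0.48. Ankrd27, Bptf and Sestd1 overlapped between conditions, at -0.05 (SE 0.127), -0.17 (SE 0.157) and -0.21 (SE 0.196), and each of these 3 turned positive under at least 1 other scaling, unit or choice of libraries, for Sestd1 at 0.036 without irradiated library 2. The median over the 10 was -0.19, beside 0.01 over all gene totals, and the median size of the change was 0.234 and 0.191.

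**Figure D4:**
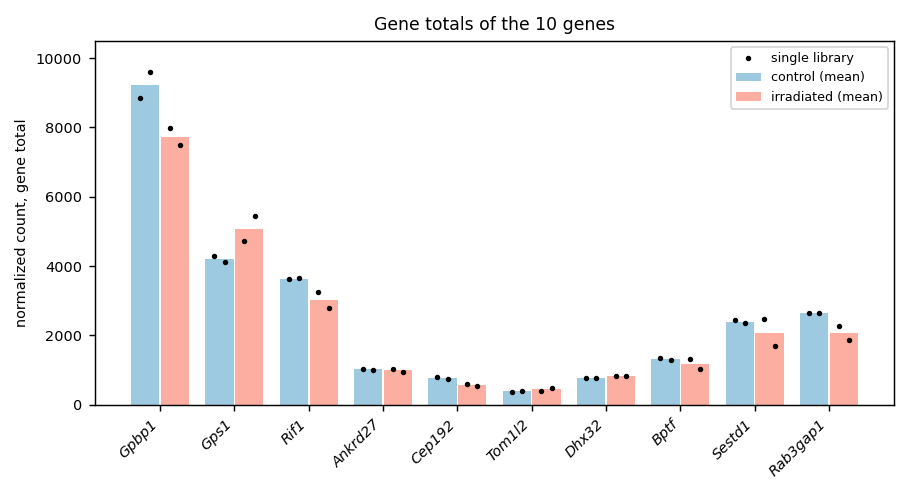
Bars give the mean normalized count of each gene total in control (blue) and irradiated (red) libraries, from a linear axis that starts at 0, and dots give the single libraries. The dots of the 2 conditions overlap for Ankrd27, Bptf and Sestd1, and the Sestd1 libraries of the irradiated condition are wide apart at 2458 and 1678.

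A test of transcript usage asks for each gene whether a transcript changed against the rest of its gene (diffSpliceDGE of edgeR with Simes' method). It called 16 of 6323 genes (0.253%) at an adjusted p under 0.05, among them 7 of the 10 members, namely Gpbp1, Gps1, Rif1, Ankrd27, Cep192, Tom1l2 and Dhx32. Since the members were picked on the same contrast, this count is no evidence for them. Bptf, Sestd1 and Rab3gap1 were not called, although the shares of the last differed least between replicates. Dhx32 was called although its irradiated libraries were farther apart than any control and irradiated library. The number of calls over all genes was 1, 2 and 3 without control 1, control 2 and irradiated 2, and was 29 without irradiated 1. With the replicate number as a block in the model it was 3.

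Outside the set, the 5 genes with the widest gap among those with a log2 fold change of the total under 0.5 in size were Slc24a2, Zbtb14, Col6a5, Nf2 and Actr3. Their gaps were 80.6, 69.0, 59.6, 53.3 and 52.2 points, measured over the 4 libraries. In Actr3, which encodes actin-related protein 3, NM_001205386.1 counted 0.06 and 0.28 in the controls against 689.28 and 814.47 after irradiation. The first 4 genes had low totals, between 104 and 226 counts in each library, under the range of every member. The members had a median of 5 listed transcripts beside 3 over the genes ranked, and a median total in their lowest library of 1568 beside 576 counts.

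Genes that act with the members passed no test. The 10 lists of partners and paralogues hold 66 genes, all of them in the table, and 63 totals could be tested. None was called in total, while 5 were higher and 0 lower at an unadjusted p under 0.05, beside 4.63% and 1.30% of all gene totals. Of 39 tested for usage 0 were called, with 1 at an unadjusted p under 0.05. The median log2 fold change of the partner totals was -0.04.

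The other subunits of the COP9 signalosome, which removes NEDD8 from cullins, were all listed. Cops2, the first of them, counted 10354 and 9888 in the controls against 9212 and 12572 after irradiation, a log2 fold change of -0.05 (SE 0.172). Trp53bp1, the partner of Rif1 at broken DNA, had 846 and 848 counts against 1086 and 1126, a log2 fold change of 0.25 (SE 0.143) with an adjusted p of 0.708 by edgeR's quasi-likelihood test. Both irradiated libraries were higher, and the difference did not pass the test. Plk4, the kinase that Cep192 recruits, was at -0.28 (SE 0.132), and Rab3gap2, the noncatalytic subunit of the Rab3gap1 complex, at -0.23 (SE 0.167).

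Rab21, the target of Ankrd27, had a log2 fold change of -0.01 (SE 0.131). Gpbp1l1, the paralogue of Gpbp1, had 190 and 189 counts against 170 and 362 and thus differed in irradiated library 2 alone. Tom1, the paralogue of Tom1l2, had 61 and 67 against 66 and 123 counts, with the same library apart. Dhx15, a DEAH-box helicase of the spliceosome, was at -0.21 (SE 0.157), and Trpc4, a channel bound by Sestd1, at -0.24 (SE 0.153). Smarca1, an ATPase of the NURF complex, had at most 2 counts in each library and could not be tested, while its relative Smarca5 had 1033 to 1434 counts.

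Genes of the splicing and 3′ end processing machinery, which select among transcript forms, passed no test either. Of 38 splicing factors all were listed, 37 totals were tested, and 0 were called with 0 at an unadjusted p under 0.05 in either direction. Of the 32 tested for usage 0 were called, with 3 at an unadjusted p under 0.05 (edgeR), and the share of all genes at that level was 6.12%. Of 16 factors of 3′ end processing 0 of 16 totals were called, with 0 at an unadjusted p under 0.05, and 0 of 12 were called for usage, with 1 at that level. Their median log2 fold changes were -0.04 and 0.0015.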

How the data were processed

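The members and the gene lists were chosen with earlier results of these data known. Oligo(dT)-selected RNA of 4 libraries was sequenced, and the libraries were grouped by their labels. The authors deposited an estimated count and a TPM value for each RefSeq transcript and library. The submitters' processing notes name HISAT2, Bowtie2, RSEM and mm10, and the annotation release is not given in the sources used here. Counts were not scaled for depth and carry the error of dividing shared reads, and TPM is scaled per length to a fixed total. A further 10 value columns, 4 of FPKM and 6 of averages, were not used. Gene IDs were matched to RefSeq on GRCm38.p6 (17323 of 17374), and exons and sequences were taken from GENCODE by RefSeq accession.

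Rounded counts entered the quasi-likelihood test of edgeR 4.0.16 (R 4.3.3) after filterByExpr (min.count 10) and TMM scaling, and diffSpliceDGE for usage, with Benjamini-Hochberg adjustment over all features. Totals and transcripts were called at an adjusted p under 0.05 when they also differed by over 2 log2 units. DESeq2 1.42.0 was an alternative. Shares, gaps and distances used the estimated counts without rounding or test. A fold against a condition at or under 3 counts in both libraries comes from scaled counts against 3 counts per library. It takes the mean of the 2 libraries of the other condition, so only the low side is bounded. It does not cover the spread between those 2 libraries, their counting error or the division of reads among transcripts. Limits from a count of 0 are 3 counts of the gene total and cover counting error only, not the division of reads. Nothing in the labels ties the 2 libraries of a condition to separate animals, so p-values measure the spread between these libraries. The tests were run on simulated data first. Usage was simulated with less spread between libraries than these transcripts show, so that run does not measure the error of the usage test here. Named genes are all 10 members, the 5 other genes with the widest gap and a log2 fold change of the total under 0.5 in size, any called gene of a list (there were none) and the first partner written for each member. Zp1, Zp2, Oosp1, Cd68, Cyp17a1 and Smarca5 were named after their values were seen, as were the other genes called for usage listed under other observations. Plots used matplotlib 3.10.9 (Python 3.11.15).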

Additional observations from a re-analysis of the deposited data

How the results depend on the processing

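With the replicate block (the replicate number as a model term) 7 gene totals, 0 transcripts and 3 genes for usage were called, against 1, 0 and 16 without it. Deviations of libraries with the same number correlated at 0.087 over 12494 gene totals and 0.0517 over 26069 transcript shares, and the labels do not say that a number marks a shared experiment. With 2 pairs these values do not settle whether the libraries are paired. Without the filter on low counts 3 gene totals and 8 genes for usage were called. DESeq2 called 5 gene totals and 233 transcripts, 123 higher and 110 lower. The F test in place of Simes' method called 58 genes for usage. Leaving out 1 library at a time gave 16 to 84 called gene totals (84 without irradiated 1), 0 called transcripts each time and 1 to 29 genes for usage (29 without irradiated 1). The lone library of a condition is there assumed to vary like the others. The count of genes with a gap above 10 points was 349, and became 744 with a gene sum of at least 20, 80 with at least 500, 850 with a gap of 5 points and 90 with a gap of 20. All 60 share differences of the members over their alternatives kept their sign. The transcripts were picked for a gap between conditions, so leaving out 1 library could not change a sign. That count therefore supports nothing. Of 70 alternative values of member totals 65 kept it. The exceptions were Ankrd27 (log2 fold change 0.11 by library size only, 0.20 by summed TPM and 0.0092 without irradiated replicate 2), Bptf (0.016 by summed TPM) and Sestd1 (0.036 without irradiated replicate 2). Scaling by library size only moved the median of all gene totals from 0.01 to 0.17 on the log2 scale. The cause of these changes was not tested. At 358 to 561 counts for Tom1l2, a share of up to 0.837% cannot be told from 0, and the error of dividing reads among transcripts of a gene is not measured here.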

Other observations

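The other 9 genes called for transcript usage were Itga6, an integrin subunit, Kif16b, an endosomal kinesin, Med14, a subunit of Mediator, Gtse1, Zfp296, Tdrd12, a tudor domain protein of the germline, Pan3, a subunit of a poly(A) nuclease, Actr3, and D430042O09Rik, which has no role named here. The 16 calls, members included, rest on 2 libraries per condition.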
